A study of Mus musculus with 12 samples.

Results

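The aquaporins, a family of membrane channels for water and in some members glycerol, were described across mouse kidney after sham surgery and after UIR, in WT mice and in mice labelled WWP2 PTCKO. Members were the rows of the deposited gene table with the symbol Aqp1, Aqp2, Aqp3, Aqp4, Aqp5, Aqp6, Aqp7, Aqp8 or Aqp11, which gave 9 of the 18803 genes in the table. Expression allowed a test for 8 of them, among 15322 genes tested. Aqp5 fell below the count filter.

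Kidney RNA was sequenced in 12 libraries, 3 in each of 4 groups: PTCKO UIR, WT UIR, PTCKO sham and WT sham. WT mice carried floxed Wwp2 alleles (WWP2fl/fl), and PTCKO mice had Wwp2, which encodes a HECT-type ubiquitin ligase, knocked out conditionally in the proximal tubule. All 4 groups were males of 8 weeks on a C57BL/6J background. The series asks what the ligase does between acute injury by UIR and chronic kidney disease. UIR is used here as the labels give it, and the Cre driver, the time after UIR and the kidney zones ground for RNA are not stated in the sources used here. The labels also do not say whether the 3 libraries of a group come from separate mice, so a p-value here reflects library-to-library spread, which may be technical.

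Aquaporins form tetramers in which each subunit holds its own pore, and the kidney uses different members in successive segments of the tubule. Aqp1 carries the constitutive water flow of the proximal tubule and the descending thin limb. In the principal cells of the collecting duct, vasopressin acts through its V2 receptor and cAMP to insert Aqp2 into the apical membrane and to raise Aqp2 transcription, and water leaves on the basolateral side through Aqp3 and Aqp4. Aqp3 and Aqp7 also pass glycerol. In whole tissue, fewer cells of a type and less RNA per cell cannot be told apart.

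Total expected counts were 15495163 to 19645743 per library. The targeted gene, Wwp2, was no lower in libraries labelled PTCKO than in those labelled WT, with averages in FPKM of 20.7 ± 1.51 in PTCKO UIR and 18.2 ± 0.805 in WT UIR, and of 16.4 ± 1.04 in PTCKO sham and 16.0 ± 1.00 in WT sham (SD, n = 3 each). After UIR edgeR called Wwp2 higher in PTCKO (log2 fold change 0.25, adjusted p = 0.037), a call against the label. It was lost without scaling (0.18, adjusted p = 0.111) and without PTCKO UIR 1 (0.22) or 3 (0.25), WT UIR 1 (0.23) or 3 (0.26), PTCKO sham 1 (0.25) or WT sham 1 (0.25). The floxed exon is not stated, so the summed reads of the gene need not show its deletion, and every direction between genotypes rests on the labels. FPKM and TPM are levels per transcript length without TMM scaling, whereas fold changes come from edgeR's quasi-likelihood test with TMM scaling. With TMM scaling the median log2 fold change of all genes for UIR against sham was 0.06 in PTCKO and 0.11 in WT, and without scaling factors it was 0.57 in PTCKO and 0.82 in WT. The share of called genes that were higher depended on this choice. It was 52.8% with TMM and 77.2% without scaling for UIR in PTCKO, and 53.6% and 78.7% for UIR in WT. For PTCKO against WT it was 67.4% with TMM and 56.1% without scaling after UIR, and 48.8% and 84.4% after sham. For the interaction, the difference between the UIR effects of the genotypes, 2203 of 3288 called genes were higher with TMM, and 32.1% of those called without scaling.

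All 8 tested aquaporins had lower transcript levels after UIR in both genotypes by edgeR with TMM scaling, although Aqp6 lost the call in PTCKO and reversed in WT without scaling factors and on FPKM or TPM. The background share of genes called lower was 34.8% in PTCKO and 36.4% in WT. The median log2 fold change of the 8 aquaporins was -2.58 in PTCKO and -3.67 in WT. After UIR, 5 of the 8 (Aqp1, Aqp2, Aqp3, Aqp7 and Aqp11) were higher in PTCKO than in WT, where 9.3% of all genes tested were called higher, and the other 3 were not called. After sham, 1 was higher in PTCKO (Aqp4) and 1 was lower (Aqp8), where 10.7% of all genes tested were called in either direction.

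**Figure D1:**
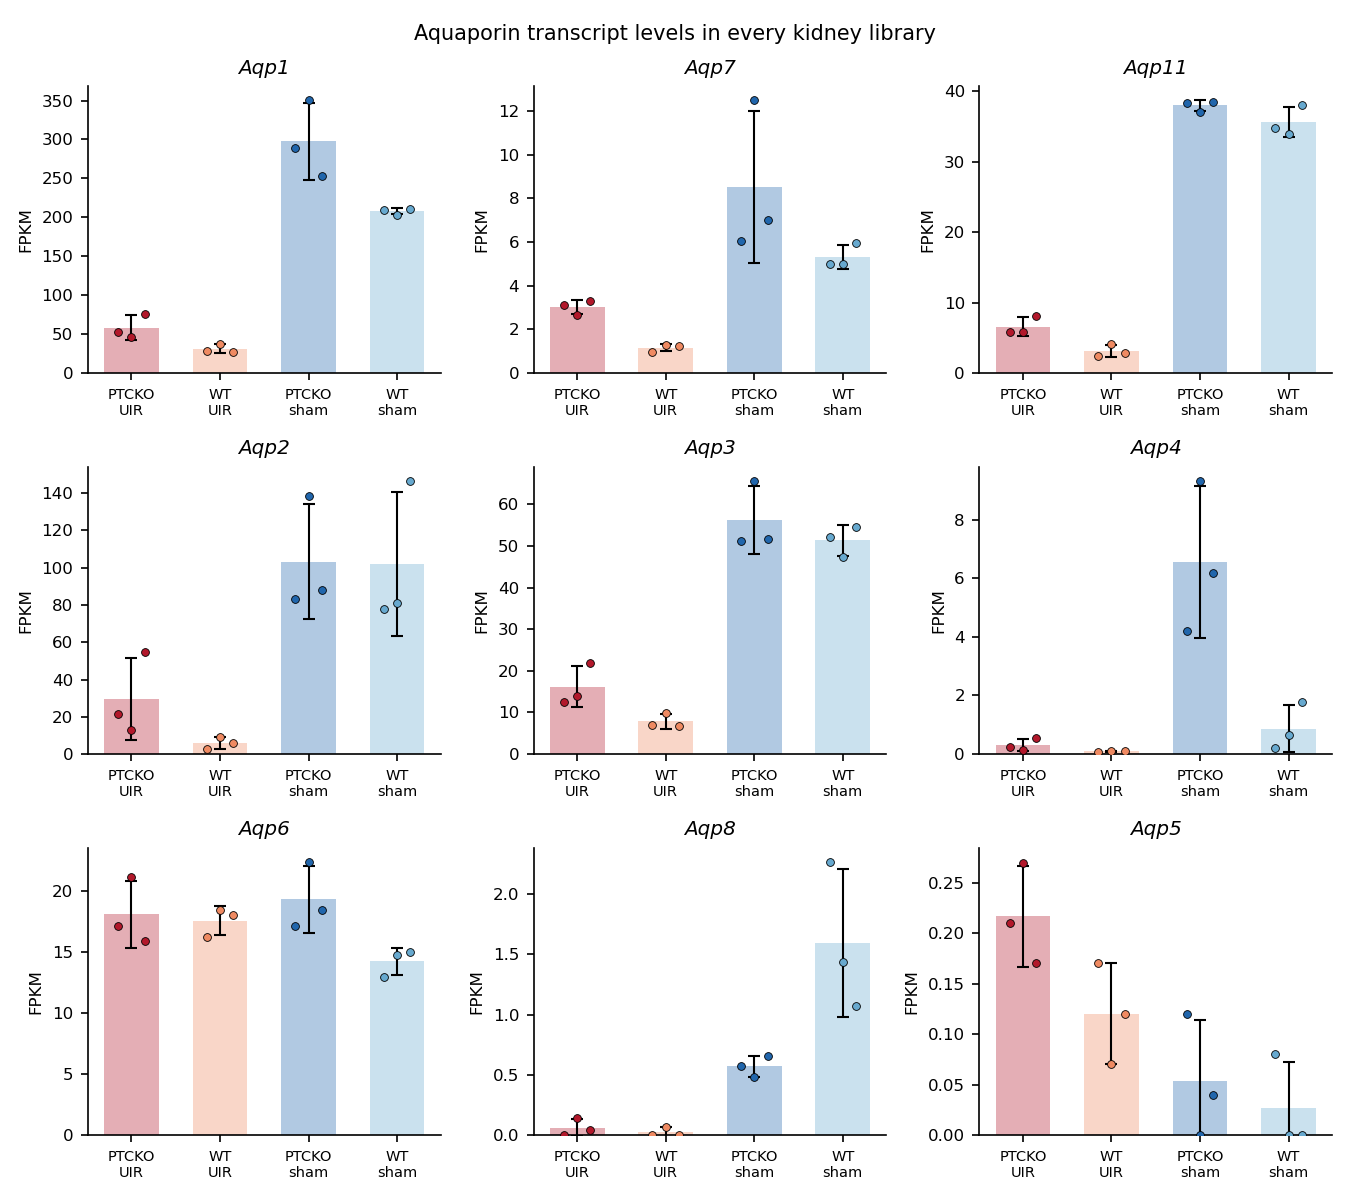
Transcript level of each aquaporin in FPKM (y axes, linear from 0) in the 4 groups, with bars for the mean, error bars for the SD (n = 3 libraries, cut off at 0) and points for single libraries. After UIR every library lies below every sham library of its genotype in all panels except those of Aqp6 and Aqp5, and Aqp6 averages 18.1 FPKM in PTCKO UIR and 17.6 FPKM in WT UIR. The share of all genes that separate in this way was not counted.

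**Figure D2:**
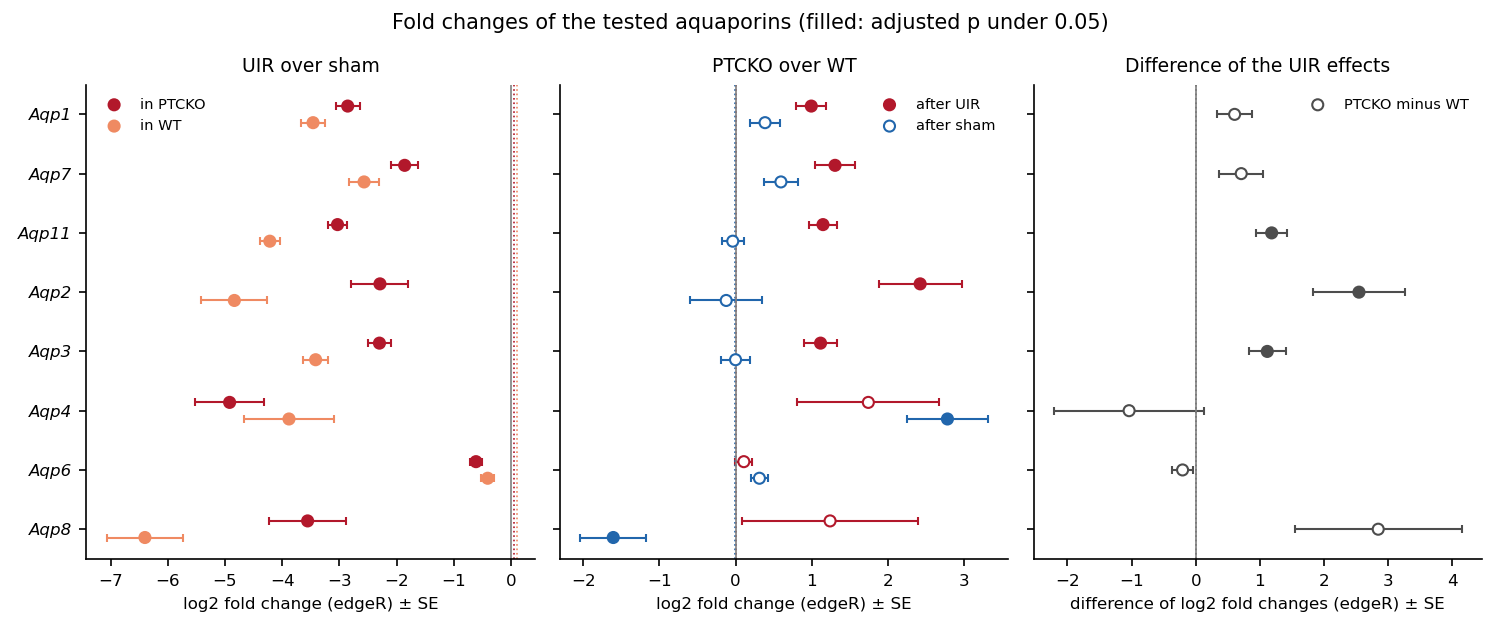
Log2 fold changes of the 8 tested aquaporins with their SE (x axes, edgeR with TMM scaling) for UIR over sham, PTCKO over WT, and the difference of the UIR effects, with filled points for an adjusted p under 0.05 and dotted lines at the median of all genes tested. All points for UIR lie below 0, from -6.40 for Aqp8 in WT to -0.41 for Aqp6 in WT, but the Aqp6 value in WT turned positive without scaling factors (0.31).

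Among the proximal tubule aquaporins, Aqp1 had the highest level. Aqp1 (Entrez 11826, chromosome 6, 55336299 to 55348555, GRCm38.p6) was at 53.20, 45.65 and 76.39 FPKM in PTCKO UIR, 28.63, 37.66 and 26.64 in WT UIR, 288.73, 351.16 and 253.04 in PTCKO sham, and 210.06, 203.34 and 210.93 in WT sham. All UIR libraries lay below all sham libraries, and no group overlapped another. UIR lowered Aqp1 by edgeR, with a log2 fold change in PTCKO of -2.85 (SE 0.207, adjusted p = 3.62e-08) and -3.46 in WT (SE 0.213, adjusted p = 4.84e-09). PTCKO exceeded WT after UIR by 0.99 on the log2 scale (SE 0.197, adjusted p = 0.00557). After sham the difference of 0.39 was not called (95% interval -0.03 to 0.80, adjusted p = 0.198), although the PTCKO libraries were the higher ones. It was called in a fit of the sham groups alone (0.41, adjusted p = 0.0486) and with limma on TPM (0.60, adjusted p = 0.0306). The UIR effects of the genotypes differed by 0.61 (adjusted p = 0.129), which was not called. The interaction was 0.33 without PTCKO UIR 3 (adjusted p = 0.328), and it was called without PTCKO UIR 2 (0.79, adjusted p = 0.0336).

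Aqp11 (Entrez 66333, chromosome 7, 97726379 to 97738247) is an intracellular aquaporin of the proximal tubule, and mice that lack it develop cystic kidneys. Its FPKM was 5.83, 5.85 and 8.09 in PTCKO UIR, 2.40, 4.08 and 2.90 in WT UIR, 38.36, 37.01 and 38.49 in PTCKO sham, and 34.81, 33.94 and 38.04 in WT sham. The sham groups overlapped and the UIR groups did not. With UIR, Aqp11 fell by 3.03 on the log2 scale in PTCKO (SE 0.166, adjusted p = 2.99e-09) and fell by 4.22 in WT (SE 0.18, adjusted p = 2.69e-10). Aqp11 was 1.15 higher in PTCKO than in WT after UIR (SE 0.189, adjusted p = 0.0022) and -0.04 apart after sham (95% interval -0.36 to 0.28, adjusted p = 0.89). The fall with UIR was smaller in PTCKO by 1.18 on the log2 scale (SE 0.24, adjusted p = 0.00695).

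Aqp7 (Entrez 11832, chromosome 4, 41033074 to 41048237) is a glycerol and water channel of the brush border in the last proximal segment, S3. It was at 3.13, 2.65 and 3.29 FPKM in PTCKO UIR, 0.97, 1.26 and 1.22 in WT UIR, 6.03, 12.51 and 7.00 in PTCKO sham, and 4.98, 4.99 and 5.96 in WT sham. Library PTCKO sham 2 stood above the rest of its group. Aqp7 fell with UIR by 1.86 on the log2 scale in PTCKO (SE 0.234, adjusted p = 8.14e-06) and fell by 2.57 in WT (SE 0.258, adjusted p = 6.85e-07). After UIR it was 1.30 higher in PTCKO (SE 0.263, adjusted p = 0.00608). After sham the value was 0.59 (95% interval 0.11 to 1.08, adjusted p = 0.101) and was not called, nor was the interaction of 0.71 (adjusted p = 0.156). Limma on TPM called the sham difference (0.66, adjusted p = 0.0376), as did edgeR without scaling factors (0.73, adjusted p = 0.0459). Without PTCKO sham 2 it was 0.32 (adjusted p = 0.363), and the interaction was then called (0.99, adjusted p = 0.0444).

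Markers of the proximal tubule moved with these genes. Of 10 markers of its S1 and S2 segments, all 10 fell with UIR in each genotype (median log2 fold change -2.85 in PTCKO and -4.40 in WT), and all 10 were higher in PTCKO than in WT after UIR (median 1.37). Of 8 S3 markers, all 8 fell in each genotype and 3 were higher in PTCKO after UIR (median 0.68). The S1 and S2 markers summed to between 936 and 1537 FPKM in PTCKO UIR and between 299 and 642 in WT UIR, and to between 4914 and 6161 in PTCKO sham and between 6638 and 6793 in WT sham. Aqp1 is also known from red cells and from endothelium of the vasa recta. Of 7 tested red cell genes 1 was higher and 0 were lower in PTCKO after UIR, and of 10 endothelial genes 0 were higher and 8 were lower. Whether the makeup of the tissue set the levels of Aqp1, Aqp7 and Aqp11 was not tested.

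Glycerol enters metabolism through the kinase Gk and the dehydrogenase Gpd1. Of 8 glycerol-handling genes, 1 rose and 7 fell with UIR in PTCKO (median log2 fold change -0.90, and -0.38 without scaling), and 1 rose and 6 fell in WT (median -1.13, and -0.42 without scaling). Gk fell by 2.98 on the log2 scale in PTCKO and fell by 3.37 in WT. Gpd1 fell by 2.33 in PTCKO and fell by 3.86 in WT, and after UIR it was 1.21 higher in PTCKO than in WT (SE 0.166, adjusted p = 0.000948). Of the 8 genes, 2 were higher, 1 was lower and 5 were not called in PTCKO against WT after UIR (median 0.04).

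In the collecting duct, Aqp2 had the largest called difference between genotypes after UIR of the 8 aquaporins tested. Aqp2 (Entrez 11827, chromosome 15, 99579056 to 99584545) was at 21.34, 12.91 and 54.63 FPKM in PTCKO UIR, 2.57, 9.09 and 5.97 in WT UIR, 83.00, 138.66 and 88.26 in PTCKO sham, and 78.06, 81.26 and 146.75 in WT sham. Within PTCKO UIR the highest library was 4.23-fold above the lowest, and within WT UIR 3.54-fold. The UIR groups did not overlap each other or the sham groups, and the sham groups overlapped. With UIR, Aqp2 fell by 2.29 on the log2 scale in PTCKO (SE 0.498, adjusted p = 0.000953) and fell by 4.84 in WT (SE 0.575, adjusted p = 3.78e-06). PTCKO was 2.42 higher than WT after UIR (SE 0.545, adjusted p = 0.0111) and -0.12 apart after sham (95% interval -1.14 to 0.89, adjusted p = 0.888).

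The difference after UIR rested in part on single libraries. Without PTCKO UIR 3 it was 1.59 (adjusted p = 0.0596) and without WT UIR 1 it was 2.07 (adjusted p = 0.054), neither of which was called. The interaction of 2.55 for Aqp2 (SE 0.718, adjusted p = 0.0259) lost its call without PTCKO UIR 3 (1.71), WT UIR 1 (2.19), PTCKO sham 1 (2.42), PTCKO sham 3 (2.44) or WT sham 3 (2.16). It was positive without each of the 12 libraries in turn (1.71 to 3.03).

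Aqp3 (Entrez 11828, chromosome 4, 41092724 to 41098183), the basolateral water and glycerol channel of the same cells, was less variable. It was at 12.60, 14.05 and 21.88 FPKM in PTCKO UIR, 6.88, 9.95 and 6.78 in WT UIR, 51.30, 65.72 and 51.65 in PTCKO sham, and 52.06, 47.29 and 54.67 in WT sham. The lowest PTCKO UIR library lay above the highest WT UIR library, and the sham groups overlapped. Aqp3 changed with UIR by -2.30 in PTCKO (SE 0.204, adjusted p = 2.65e-07) and -3.42 in WT (SE 0.217, adjusted p = 6.69e-09) on the log2 scale. It was 1.11 higher in PTCKO than in WT after UIR (SE 0.212, adjusted p = 0.00454), and the sham value was -0.0014 (95% interval -0.42 to 0.41, adjusted p = 0.999). Its interaction of 1.12 (SE 0.286, adjusted p = 0.0176) lost the call without WT UIR 1 (1.02, adjusted p = 0.0548) and with limma on TPM (0.69, adjusted p = 0.0516).

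In the interaction, 3 of the 8 aquaporins were called (Aqp2, Aqp3 and Aqp11), each with a smaller fall in PTCKO, where 14.4% of all genes tested were called higher. The count was 1, for Aqp11, without WT UIR 1.

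The summed level of principal cell markers did not follow Aqp2 and Aqp3 in step, although some single markers shared the smaller fall in PTCKO. The summed FPKM of 12 principal cell markers, a list without aquaporins, lay between 320.5 and 381 in PTCKO UIR and between 254 and 349 in WT UIR, and between 282 and 309 in PTCKO sham and between 284 and 310.4 in WT sham. The UIR groups overlapped each other, as did the sham groups, and PTCKO UIR lay above both sham groups. With UIR 0 rose and 3 fell of the 12 in PTCKO (median log2 fold change -0.25), and 2 rose and 6 fell in WT (median -0.32). Without scaling factors 6 rose and 2 fell in PTCKO (median 0.26), and 6 rose and 5 fell in WT (median 0.40). The ratio of Aqp2 to this marker sum lay between 0.0339 and 0.169 in PTCKO UIR and between 0.00886 and 0.0261 in WT UIR, and between 0.272 and 0.448 in PTCKO sham and between 0.272 and 0.473 in WT sham. The ratio of Aqp3 to it lay between 0.0369 and 0.0679 in PTCKO UIR and between 0.0237 and 0.0285 in WT UIR, and between 0.168 and 0.213 in PTCKO sham and between 0.158 and 0.183 in WT sham. Both ratios separated the UIR from the sham libraries.

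Single markers differed. Avpr2, the V2 vasopressin receptor, was at 3.77 ± 0.731 FPKM in PTCKO UIR, 2.46 ± 0.823 in WT UIR, 9.59 ± 1.79 in PTCKO sham and 8.55 ± 0.433 in WT sham (SD, n = 3 each). It fell by 1.92 on the log2 scale in PTCKO (SE 0.214, adjusted p = 2.53e-06) and fell by 2.37 in WT (SE 0.222, adjusted p = 3.28e-07), and its difference of 0.59 between genotypes after UIR was not called (adjusted p = 0.107). Scnn1a, a subunit of the epithelial sodium channel, averaged 33.2 ± 2.69 FPKM in PTCKO UIR, 35.7 ± 4.78 in WT UIR, 61.5 ± 3.79 in PTCKO sham and 54.9 ± 3.00 in WT sham, and was called lower after UIR in both genotypes (adjusted p = 4.73e-08 in PTCKO and 1.19e-07 in WT). Hsd11b2, which shields the mineralocorticoid receptor from glucocorticoids, averaged 90.3 ± 13.0 FPKM in PTCKO UIR and 67.6 ± 16.1 in WT UIR. In sham it averaged 76.9 ± 4.9 FPKM in PTCKO and 89.6 ± 3.22 in WT. Its log2 fold change with UIR was -1.12 in WT (SE 0.144, adjusted p = 7.89e-06). In PTCKO the value of -0.29 was not called (adjusted p = 0.0849). After UIR Hsd11b2 was 0.49 higher in PTCKO by edgeR (SE 0.142, adjusted p = 0.0384), and its interaction was 0.835 (SE 0.201, adjusted p = 0.0137). Of the 12 markers, 3 were higher and 0 lower in PTCKO after UIR (median 0.32, and 0.26 without scaling, where 1 was higher), and after sham edgeR called 0 with TMM and 2 higher without scaling. With TMM the 3 were Hsd11b2 and 2 further sodium channel subunits, Scnn1b (0.67, adjusted p = 0.00187) and Scnn1g (0.70, adjusted p = 0.0348). With UIR, Scnn1b changed by -1.02 in WT (adjusted p = 1.01e-06) and by -0.06 in PTCKO, which was not called (adjusted p = 0.623). In the interaction with TMM scaling, 3 of the 12 were called higher and 0 lower (median 0.07), where 14.4% of all genes tested were called higher. These were again Hsd11b2, Scnn1b (0.962, adjusted p = 0.0026) and Scnn1g (0.845, adjusted p = 0.048).

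**Figure D3:**
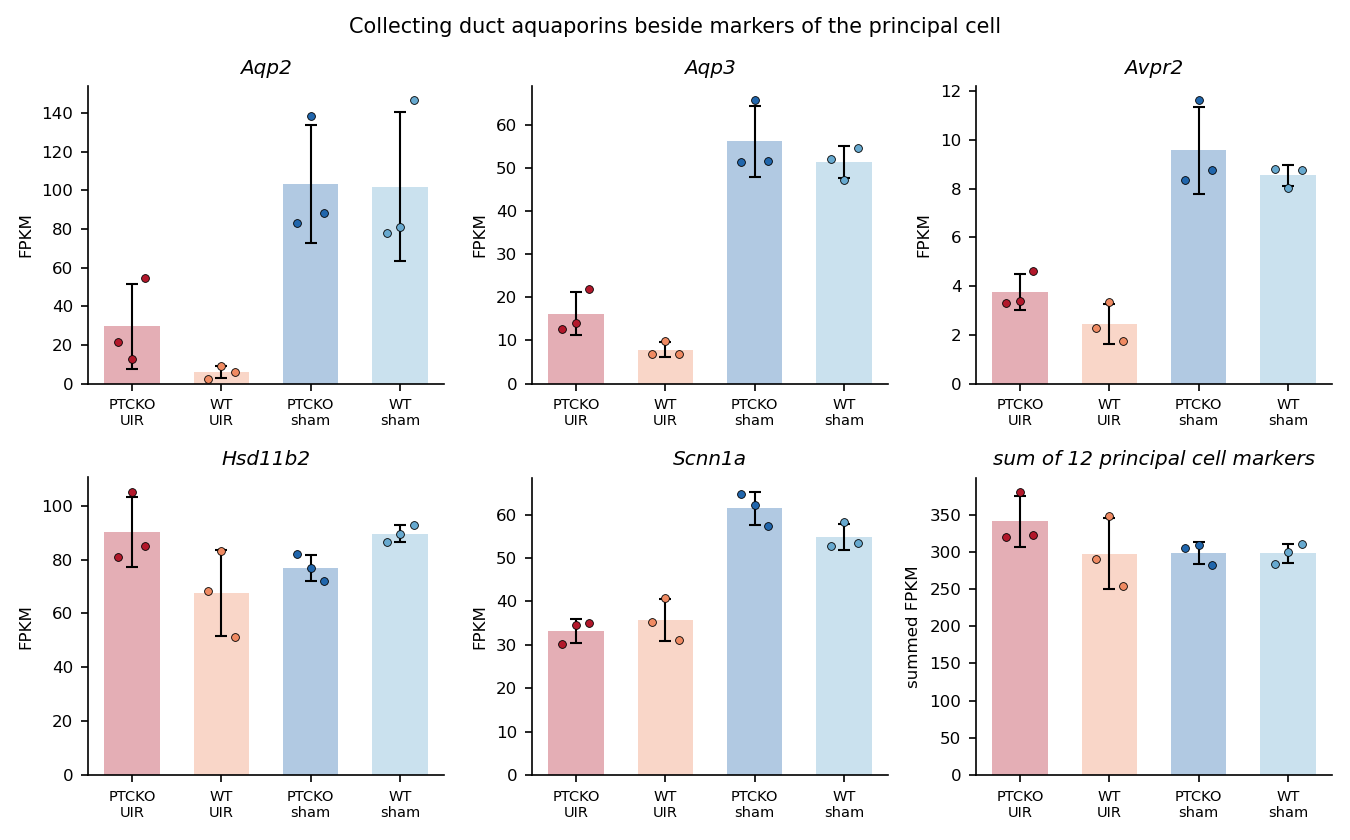
FPKM (y axes, linear from 0) of Aqp2, Aqp3 and the principal cell markers Avpr2, Hsd11b2 and Scnn1a, and the summed FPKM of 12 principal cell markers, in the 4 groups (bars for the mean, error bars for the SD over 3 libraries, points for libraries). Aqp2 after UIR reached at most 54.6 FPKM in PTCKO and 9.09 FPKM in WT, below the sham minimum of 78.1, while the marker sum reached 381 FPKM in PTCKO UIR and 310.4 FPKM in WT sham.

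Genes known to act on Aqp2 moved in both directions, as did genes at large. Of all 15322 genes tested, 5969 rose and 5336 fell with UIR in PTCKO, and 6458 rose and 5580 fell in WT. Of 19 genes of vasopressin and cAMP signalling, 7 rose and 6 fell with UIR in PTCKO (median log2 fold change 0.02, and 0.53 without scaling), and 9 rose and 6 fell in WT (median 0.21, and 0.92 without scaling). Gnas, the stimulatory G protein subunit downstream of the receptor, changed by -0.33 in PTCKO and -0.34 in WT, and Prkaca, a catalytic subunit of protein kinase A, by -0.37 in PTCKO and -0.62 in WT. After UIR 1 of the 19 was higher and 1 lower in PTCKO than in WT. Of 15 genes of Aqp2 vesicle traffic, 4 rose and 6 fell in PTCKO (median -0.14, and 0.37 without scaling), and 3 rose and 10 fell in WT (median -0.48, and 0.23 without scaling). After UIR 3 of the 15 were higher and 0 lower in PTCKO than in WT, where 9.3% of all genes tested were called higher. In the interaction 2 were higher and 0 lower, where 14.4% of all genes tested were called higher. The annexin Anxa2 rose by 3.47 in PTCKO and by 3.61 in WT, and the chaperone Hspa8 fell by 1.40 in PTCKO and fell by 1.26 in WT.

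Aqp4 (Entrez 11829), the second basolateral channel of the principal cell and in mice also found in the S3 segment, was the aquaporin called higher in PTCKO after sham. It was at 0.23, 0.14 and 0.54 FPKM in PTCKO UIR, 0.08, 0.11 and 0.09 in WT UIR, 4.19, 9.33 and 6.17 in PTCKO sham, and 0.19, 0.65 and 1.76 in WT sham. The lowest PTCKO sham library lay above the highest WT sham library, and WT sham libraries spread 9.26-fold. The difference after sham was 2.78 on the log2 scale (SE 0.532, adjusted p = 0.0121), and it was 2.45 without PTCKO sham 2 (adjusted p = 0.0431) and 3.87 without WT sham 3 (adjusted p = 0.00435). With UIR, Aqp4 fell by 4.92 on the log2 scale in PTCKO (SE 0.608, adjusted p = 6.87e-06) and fell by 3.88 in WT (SE 0.793, adjusted p = 0.000522). The level after UIR rested on 84 expected counts over the PTCKO UIR group and 27 over WT UIR, and the genotypes then differed by 1.74 (95% interval -0.27 to 3.75, adjusted p = 0.242), which was not called.

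The transcripts Slc14a2, Slc12a1 and Cyp7b1 were, like Aqp4, at their highest among the sham libraries in PTCKO sham 2. This was not particular to them, since Aqp1, Aqp3, Aqp6 and Aqp7 were also highest in that library in FPKM. Aqp2, Aqp5, Aqp8 and Aqp11 were not. Slc14a2, the urea transporter of the inner medullary collecting duct and thin limb, was at 0.61, 8.32 and 0.15 FPKM in PTCKO sham and listed at 0 in all 3 WT sham libraries. Slc12a1, the sodium, potassium and chloride cotransporter of the thick ascending limb, was at 150.56, 267.25 and 139.20 FPKM in PTCKO sham, against 78.98, 79.60 and 85.75 in WT sham, and was called higher (log2 fold change 1.06, SE 0.249, adjusted p = 0.0243). Cyp7b1, an S3 marker, was at 88.78, 173.37 and 61.47 FPKM in PTCKO sham, against 8.06, 15.00 and 45.72 in WT sham (2.08, SE 0.501, adjusted p = 0.0255). In the other PTCKO sham libraries the order differed, since Aqp4 was lower in library 1 than in library 3 and these 3 transcripts were higher in library 1. In WT sham the order was shared, as Aqp4, Slc12a1 and Cyp7b1 each rose from library 1 through library 2 to library 3. Another S3 marker, Slc7a13, was at 464.51, 427.98 and 382.98 FPKM in PTCKO sham, highest in library 1, and was not called after sham (0.19, adjusted p = 0.617). Of 8 S3 markers 1 was higher and 0 lower in PTCKO sham, with a summed FPKM of 2697 to 3265 against 2189 to 2348 in WT sham. Of 9 thick limb genes 2 were higher and 0 lower in PTCKO sham, with a summed FPKM of 1337 to 2780 against 1137 to 1303 in WT sham, and of 6 tested thin limb genes 2 were higher and 0 lower. The part of these transcripts in the Aqp4 difference was not tested.

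**Figure D4:**
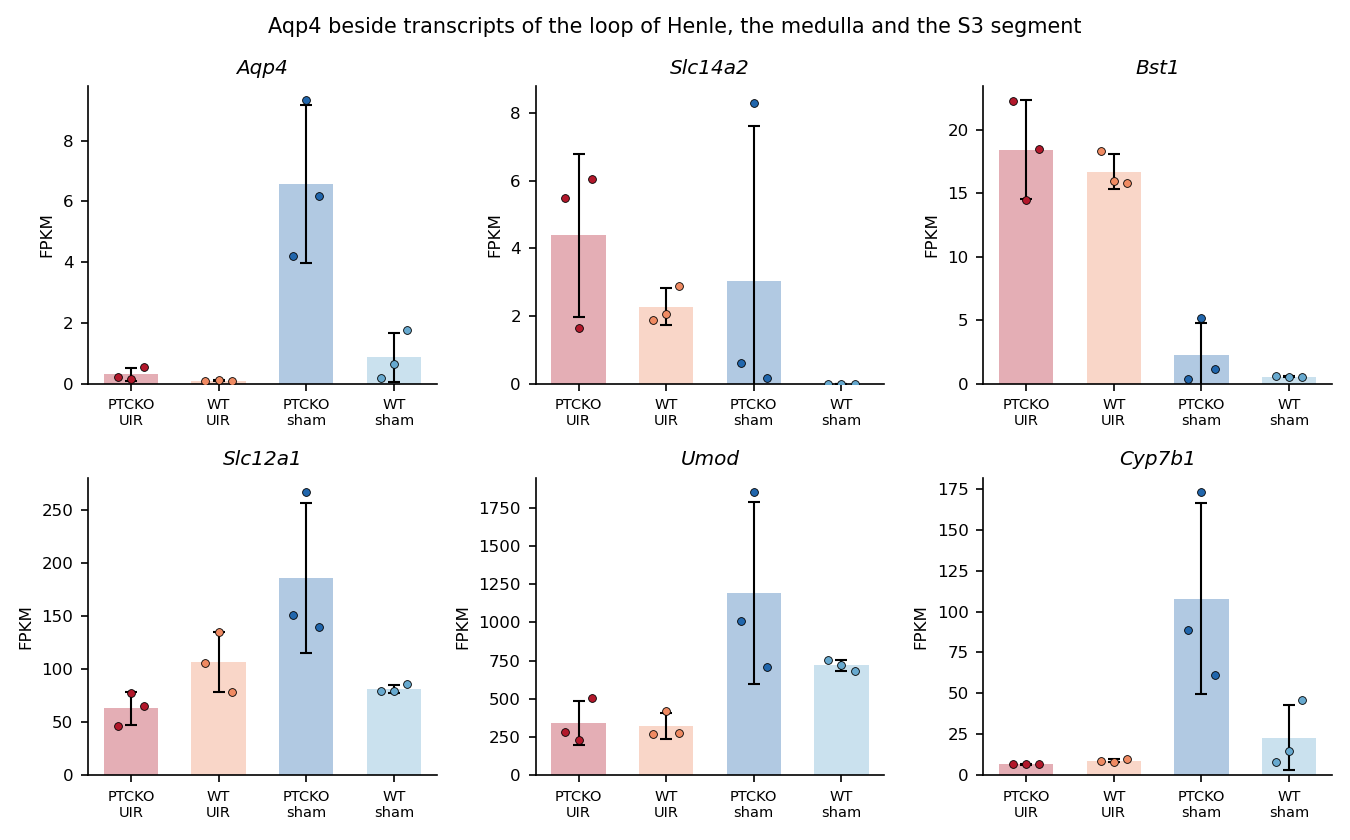
FPKM (y axes, linear from 0) of Aqp4, the medullary urea transporter Slc14a2, the thin limb marker Bst1, the thick limb genes Slc12a1 and Umod and the S3 marker Cyp7b1 in the 4 groups (bars for the mean, error bars for the SD over 3 libraries, cut off at 0, points for libraries). In PTCKO sham the middle point, library 2, is the highest of its group in every panel, at 9.33 FPKM for Aqp4 and 8.32 FPKM for Slc14a2.

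Aqp6 differed from the other tested aquaporins in that its UIR libraries did not all lie below the sham libraries in FPKM. Aqp6 (Entrez 11831, chromosome 15, 99598468 to 99605478) resides in intracellular vesicles of type A intercalated cells, the acid-secreting cells of the collecting duct. It was at 17.15, 21.16 and 15.93 FPKM in PTCKO UIR, 16.19, 18.46 and 18.02 in WT UIR, 17.14, 22.39 and 18.42 in PTCKO sham, and 12.94, 14.73 and 15.00 in WT sham. In FPKM the UIR and sham libraries overlapped in PTCKO, and in WT all UIR libraries were the higher ones. With TMM scaling Aqp6 was called lower after UIR, by a log2 value of -0.61 in PTCKO (SE 0.113, adjusted p = 0.000255) and in WT (-0.41, SE 0.114, adjusted p = 0.00498), whereas without scaling it was -0.095 in PTCKO (adjusted p = 0.48) and called higher in WT (0.31, adjusted p = 0.0324). Its genotype differences of 0.11 after UIR (95% interval -0.14 to 0.35, adjusted p = 0.567) and 0.31 after sham (95% interval 0.07 to 0.56, adjusted p = 0.0905) were not called with TMM. Without scaling the sham difference was called (0.44, adjusted p = 0.0345), and in FPKM the sham groups did not overlap. Limma also called it on FPKM (0.41, adjusted p = 0.0408) and on TPM (0.52, adjusted p = 0.0215), but not on unfiltered FPKM (adjusted p = 0.0635).

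Most intercalated cell markers fell after UIR with TMM scaling. Of 11 markers, 0 rose and 9 fell with UIR in PTCKO and 2 rose and 9 fell in WT (median log2 fold change -0.96 in PTCKO and -1.24 in WT, and -0.45 and -0.53 without scaling). Foxi1, the transcription factor of intercalated cells, was at 24.8 ± 8.03 FPKM in PTCKO UIR and 44.9 ± 4.75 in WT UIR, and 13.8 ± 1.32 in PTCKO sham and 15.3 ± 3.64 in WT sham (SD, n = 3 each). With Atp6v0d2, a proton pump subunit, it made up the 2 that rose in WT (log2 fold change of Foxi1 0.85, adjusted p = 0.000955, and of Atp6v0d2 0.93, adjusted p = 0.000124). Foxi1 was lower in PTCKO than in WT after UIR (-0.79, SE 0.184, adjusted p = 0.0132). Atp6v0d2 was also lower in PTCKO after UIR (-0.96, SE 0.158, adjusted p = 0.0022). In this comparison 1 of the 11 markers was higher, 3 were lower and 7 were not called (median -0.10). Among all 15322 genes tested, 1425 were called higher and 690 lower. The 11 markers summed to between 187 and 297 FPKM in PTCKO UIR and between 260.2 and 306 in WT UIR, and to between 248 and 261 in PTCKO sham and between 274 and 278 in WT sham.

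The makeup of the family in TPM differed between UIR and sham. The 9 members together had between 188 and 307 TPM in PTCKO UIR and between 107 and 148 in WT UIR, and between 811 and 1083 in PTCKO sham and between 638 and 735 in WT sham. Aqp6 was 14.8% ± 5.9 of this sum in PTCKO UIR, 26.7% ± 3.35 in WT UIR, 3.66% ± 0.269 in PTCKO sham and 3.41% ± 0.342 in WT sham (SD, n = 3 each). Aqp2 was 20.5% ± 8.93 in PTCKO UIR, 8.47% ± 3.58 in WT UIR, 19.3% ± 2.41 in PTCKO sham and 23.9% ± 6.13 in WT sham. Aqp1 stayed the largest share, at 42.2% to 49.5% in the UIR libraries and 44.5% to 59.0% in the sham libraries. In WT UIR Aqp6 was therefore the second most abundant aquaporin per length, above Aqp3 and Aqp2, whose ranges overlapped, and in the sham groups it came after Aqp1, Aqp2, Aqp3 and Aqp11, with no overlap between neighbours in that order. In PTCKO UIR the ranges of Aqp2, Aqp6 and Aqp3 overlapped their neighbours, and that of Aqp1 overlapped Aqp2.

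**Figure D5:**
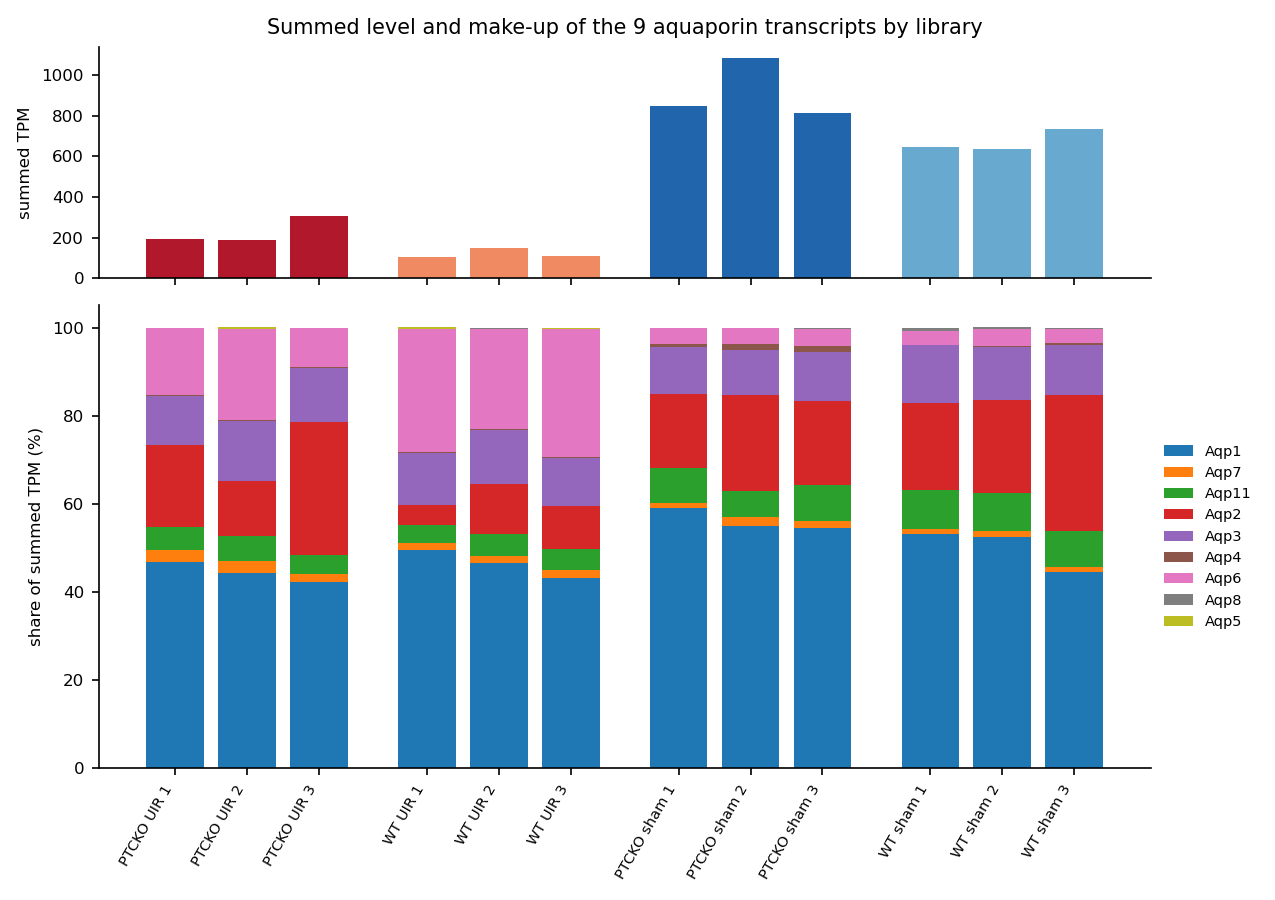
Summed TPM of the 9 aquaporins (upper y axis, linear from 0) and the share of each in that sum in percent (lower y axis) for each of the 12 libraries. The pink Aqp6 segment takes 8.8% to 20.6% in PTCKO UIR and 22.9% to 29.2% in WT UIR, against 3.5% to 3.97% in PTCKO sham and 3.16% to 3.8% in WT sham.

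Aqp8 and Aqp5 were near the limit of detection. Aqp8 (Entrez 11833, chromosome 7, 123462294 to 123468003), found at low levels in proximal tubule and collecting duct cells of rodents, was at 0, 0.14 and 0.04 FPKM in PTCKO UIR, 0, 0.07 and 0 in WT UIR, 0.57, 0.48 and 0.66 in PTCKO sham, and 2.27, 1.44 and 1.07 in WT sham. These values rest on 5 expected counts over PTCKO UIR, 2 over WT UIR, 39 over PTCKO sham and 115 over WT sham. By counting alone Aqp8 was 8.85-fold lower in PTCKO UIR than in PTCKO sham (95% interval 3.48 to 28.8) and 64.2-fold lower in WT UIR than in WT sham (95% interval 17.4 to 536), and these intervals cover counting error only. By edgeR it was called lower after UIR in PTCKO (adjusted p = 0.000326) and in WT (adjusted p = 9.99e-07). It was lower in PTCKO than in WT after sham (log2 fold change -1.61, SE 0.431, adjusted p = 0.0355), and the sham groups did not overlap. That call was lost on leaving out any 1 of the 6 sham libraries. The values were -1.62, -1.49 and -1.72 without PTCKO sham 1, 2 or 3, and -1.26, -1.69 and -1.81 without WT sham 1, 2 or 3 (adjusted p = 0.0527 to 0.118). The interaction of 2.85 for Aqp8 was not called by edgeR (adjusted p = 0.132), and limma called it on FPKM (0.75, adjusted p = 0.019) and on TPM (0.90, adjusted p = 0.0217).

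Aqp5 (Entrez 11830, chromosome 15, 99591028 to 99594829), known mainly from salivary, tear and airway glands, had 18 expected counts over PTCKO UIR, 10 over WT UIR, 4 over PTCKO sham and 2 over WT sham. Its FPKM was 0.21, 0.27 and 0.17 in PTCKO UIR, 0.17, 0.07 and 0.12 in WT UIR, 0.12, 0 and 0.04 in PTCKO sham, and 0.08, 0 and 0 in WT sham. Relative to the group's total counts it was 3.97-fold higher in PTCKO UIR than in PTCKO sham (95% interval for counting error 1.31 to 16.1) and 4.48-fold higher in WT UIR than in WT sham (95% interval 0.955 to 42.0). Tests across libraries without the count filter differed by tool. Aqp5 was not called after UIR by edgeR (1.41, adjusted p = 0.169 in PTCKO, and 1.34, adjusted p = 0.293 in WT) or by DESeq2 (adjusted p = 0.268 in PTCKO and 0.357 in WT). Limma on log2(FPKM + 1) called it higher in PTCKO (0.21, adjusted p = 0.00367) and in WT (0.13, adjusted p = 0.0454), on a scale that understates the change of genes this low.

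Aqp2, Aqp5 and Aqp6 are neighbours on chromosome 15, with 6482 bases between Aqp2 and Aqp5 and 3638 between Aqp5 and Aqp6, yet in WT sham Aqp2 averaged 102 ± 38.8 FPKM, Aqp5 0.0267 ± 0.0462 FPKM and Aqp6 14.2 ± 1.12 FPKM (SD, n = 3). Aqp7 and Aqp3 lie 44486 bases apart on chromosome 4. The promoters of the chromosome 15 genes are printed because these neighbours differed in level and in response to UIR, and that of Aqp3 because it fell alongside Aqp2. Each runs from 250 bases before to 50 bases after the start site on the gene's strand, from RefSeq on GRCm38.p6. They lie at chr15:99578806-99579105 (Aqp2, + strand), chr15:99590778-99591077 (Aqp5, + strand), chr15:99600950-99601249 (Aqp6, + strand) and chr4:41098134-41098433 (Aqp3, - strand), and the Aqp6 start site lies inside the annotated span of that gene. Capitals mark the motifs found.
Aqp2: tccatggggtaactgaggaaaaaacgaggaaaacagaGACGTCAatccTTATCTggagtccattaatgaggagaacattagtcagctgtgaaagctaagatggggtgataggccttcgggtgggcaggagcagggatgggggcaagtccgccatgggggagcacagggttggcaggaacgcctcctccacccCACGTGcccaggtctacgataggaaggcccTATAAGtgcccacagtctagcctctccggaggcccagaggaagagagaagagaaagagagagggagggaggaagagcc
Aqp5: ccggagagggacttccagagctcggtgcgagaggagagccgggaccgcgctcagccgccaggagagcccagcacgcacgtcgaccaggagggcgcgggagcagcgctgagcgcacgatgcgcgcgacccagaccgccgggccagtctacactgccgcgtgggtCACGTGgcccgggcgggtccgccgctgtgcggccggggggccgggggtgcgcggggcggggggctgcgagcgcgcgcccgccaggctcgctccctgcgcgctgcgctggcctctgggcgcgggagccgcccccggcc
Aqp6: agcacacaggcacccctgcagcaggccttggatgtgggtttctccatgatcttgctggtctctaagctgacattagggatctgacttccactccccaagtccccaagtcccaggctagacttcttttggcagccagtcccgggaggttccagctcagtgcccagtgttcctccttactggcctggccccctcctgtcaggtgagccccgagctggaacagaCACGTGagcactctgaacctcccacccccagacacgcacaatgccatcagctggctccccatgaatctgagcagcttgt
Aqp3: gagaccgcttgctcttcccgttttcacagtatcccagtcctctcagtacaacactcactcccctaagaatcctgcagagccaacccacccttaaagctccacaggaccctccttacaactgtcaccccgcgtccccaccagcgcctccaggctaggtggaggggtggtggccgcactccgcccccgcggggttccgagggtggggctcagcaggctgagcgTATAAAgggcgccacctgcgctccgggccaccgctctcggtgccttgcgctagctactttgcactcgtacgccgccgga

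The Aqp2 promoter held TATAAG 28 bases before the start site, CACGTG at 58 bases, GACGTCA at 213 bases and, read on the other strand, a GATA motif (TTATCT) at 202 bases. GACGTCA is the core of the cAMP response element, and the full TGACGTCA was not in this window. Aqp3 held TATAAA 29 bases before its start. Aqp5 held CACGTG at 87 bases and Aqp6 at 29 bases, and neither held a TATA motif. Searched on both strands, CACGTG was in 7.15% of 32851 RefSeq mouse promoters of this length, GACGTCA in 3.21%, TGACGTCA in 1.79%, AGATAA or TGATAA in 18.6%, and GTTAAT in 7.1%. TATAAA or TATAAG was in 18.8%. Matches are descriptions of these windows only. In the same windows Aqp8 held CACGTG at 75 bases, 1 of 2 Aqp7 start sites held AGATAA at 132 bases, and Aqp1 and Aqp11 held none of the motifs searched.

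Across the 12 libraries the members with the closest course were found by Pearson correlation of log2(TMM-scaled CPM + 1), given as a description. All points share the contrast between UIR and sham. Aqp1 and Aqp3 correlated at 0.994 (n = 12), Aqp3 and Aqp11 at 0.994, Aqp1 and Aqp11 at 0.992, and Aqp2 and Aqp3 at 0.974. With the group means removed, the values were 0.915 for Aqp1 and Aqp3, 0.841 for Aqp3 and Aqp11, 0.761 for Aqp1 and Aqp11 and 0.856 for Aqp2 and Aqp3. Aqp2 and Aqp11 then had 0.872. These values do not hold library by library: within PTCKO sham, library 2 was the highest for Aqp3 and the lowest for Aqp11. On that measure Aqp6 had 0.452 with Aqp7, 0.425 with Aqp4, 0.127 with Aqp2, 0.082 with Aqp3, -0.029 with Aqp11 and -0.083 with Aqp1. Within PTCKO UIR, library 3 was the highest for Aqp1, Aqp2, Aqp3, Aqp4, Aqp7 and Aqp11 in FPKM and the lowest for Aqp6. Within WT UIR, library 2 was the highest for Aqp1, Aqp2, Aqp3, Aqp4, Aqp6, Aqp7 and Aqp11. It was also the highest for Aqp8, on 2 expected counts.

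Among 9385 genes with a mean of at least 5 FPKM, the 5 with the highest correlation to Aqp1 over the 12 libraries were Mep1a, Acox2, Slc6a13, Bdh1 and Acss2 (r = 0.997 to 0.999). For Aqp11 they were Gcdh, Slc17a1, Proc, Amacr and Gstz1 (0.999 each), for Aqp7 Clec16a, Cdhr2, Lzts3, Tgm1 and Slc2a5 (0.981 to 0.982), and for Aqp3 Slc6a18, Oplah, Slc44a4, Proc and Aldh4a1 (0.996 each). For Aqp2 the gene with the highest correlation was Fabp3 (0.988), which encodes a fatty acid-binding protein. For Aqp4 they were Methig1, Serpina1f, Akr1c18, Cyp7b1 and Fbxo21 (0.957 to 0.983), and for Aqp6 Mplkip, Methig1, Slc9a8, Tfcp2 and Pgap4 (0.936 to 0.952). With the group means removed, Mep1a was again the most similar gene to Aqp1 (0.97) and Methig1 to Aqp4 (0.951), and Atp1b1, a sodium pump subunit, was the most similar to Aqp3 (0.961).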

How the data were processed

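Kidney RNA was sequenced in 12 libraries. Tools and build (Bowtie2, RSEM, DESeq2 and GRCm38.p6) are given without roles, per the submitters' processing notes. The authors deposited 1 table holding, for each gene in each library, its expected count and its FPKM and TPM. Both FPKM and TPM are length- and depth-normalised units of the authors, named per the file headers. Between 30.8% and 35.4% of a library's count values were not whole (tolerance 1e-06), so they were taken as RSEM expected counts, and the sources used here do not say whether strand was counted. Per-sample columns were mapped to libraries by name. The TPM column of PTCKO UIR 3 is headed CKO in place of PTCKO, and was assigned by its UIR suffix and library number, so TPM values and shares of that library rest on this reading.

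Expected counts were rounded and tested with edgeR 4.0.16 in R 4.3.3 (filterByExpr, TMM, quasi-likelihood test, 1 coefficient per group, 8 residual degrees of freedom, two-sided, Benjamini-Hochberg adjustment over 15322 genes). Genes with an adjusted p under 0.05 were called. The SE is the log2 fold change divided by the square root of the F statistic. Mean levels are FPKM ± SD (n = 3), and summed levels are FPKM over all genes of a list. The test script was tested on simulated data. Alternatives used other scalings and filters, DESeq2 1.42.0, limma 3.58.1 on FPKM or TPM (pseudocount 1 or 0.1, with at least 1 in 3 libraries or no filter), a replicate block, the groups compared alone, and each library left out. Counting intervals are exact at 95%.

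Members, gene lists and tests were chosen with earlier results of these data known. The text names all members and, per list, up to 4 tested genes of the highest mean FPKM, plus Wwp2, Avpr2 and Nfat5. Slc14a2, Bst1, Slc12a1, Umod, Cyp7b1, Slc7a13, Scnn1b, Scnn1g, Foxi1 and Atp6v0d2 are members of the lists, and some were picked for naming after their values were seen. Promoter sequences of 8 of the 9 members came from RefSeq, and that of Aqp4 was left out and is not reported here. For Aqp2 the most similar gene by level is named, and the rest of its list is not reported here.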

Additional observations from a re-analysis of the deposited data

Results flagged for a closer look

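The effect of UIR differed between the genotypes for 3 aquaporins by the interaction test of edgeR. The difference, PTCKO minus WT, was 2.545 on the log2 scale for Aqp2, 1.116 for Aqp3 and 1.184 for Aqp11, each with the larger fall in WT. The Aqp2 and Aqp3 values lost their call without WT UIR 1 (2.19 and 1.02), and Aqp2 also lost it without any of 4 other libraries, whereas Aqp11 kept it without each of the 12 libraries in turn (0.976 to 1.43). Groups of 3 libraries are too small for a test of single outlying libraries.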

How the results depend on the processing

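The falls of Aqp1, Aqp2, Aqp3, Aqp7, Aqp8 and Aqp11 with UIR kept their direction and call in both genotypes under every alternative that gave a value. Aqp4 did too, except in WT with limma on unfiltered FPKM (-0.68, adjusted p = 0.0549). Aqp6 in WT reversed to 0.305 without scaling, 0.286 with limma on FPKM, 0.303 with a pseudocount of 0.1, 0.286 without a filter and 0.459 with TPM, and in PTCKO lost its call under these settings (-0.0962 to -0.078). After UIR, Aqp6 in PTCKO against WT reversed to -0.02 with TPM and Aqp8 ranged from -0.144 (without PTCKO UIR 2) to 3.53 on leaving out single libraries. After sham, in the order no scaling, FPKM, pseudocount 0.1, no filter and TPM, Aqp2 reversed to 0.0179, 0.0413, 0.0419, 0.0413 and 0.142, Aqp3 to 0.131, 0.122, 0.124, 0.122 and 0.222, and Aqp11 to 0.0927, 0.0915, 0.0937, 0.0915 and 0.192. Aqp3 was 0.0249 in a fit of the sham groups alone. None of these sham values was called, and on leaving out each library they ranged from -0.384 to 0.266 for Aqp2, -0.119 to 0.0704 for Aqp3 and -0.0896 to 0.0366 for Aqp11. The cause of the reversals was not tested.

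The count of aquaporins called after sham, 2, was 4 without scaling, 1 with DESeq2 (where Aqp8 had no adjusted p), 5 with TPM, and 1 to 2 without single libraries. For the interaction there were 5 in place of 3 with limma on FPKM (Aqp4 at -1.81 and Aqp8 added) and likewise 5 on TPM (Aqp4 at -2.09, Aqp6 at -0.54 and Aqp8 added, Aqp3 lost), and 1 to 4 without single libraries. Limma on unfiltered FPKM lost the interaction calls of Aqp2 (1.99, adjusted p = 0.0754) and Aqp3 (0.81, adjusted p = 0.0627). Over all genes, leaving out 1 library gave 904 to 3321 calls after UIR (2115 with all, beyond 1.5-fold without PTCKO UIR 1, 2 or 3 or WT UIR 1 or 3), 430 to 2183 after sham (1645, beyond 1.5-fold without any PTCKO sham library or WT sham 1 or 3) and 1743 to 4565 for the interaction (3288, beyond 1.5-fold without PTCKO UIR 1 or 3, WT UIR 1 or WT sham 3). TPM gave 2597 calls after sham.

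Replicate numbers are shared across groups, but of 18 same-numbered pairs 2 had correlated deviations over 0.1 (-0.108 to 0.249), so the numbers were not taken to pair the libraries. With the number as a replicate block, 1 aquaporin was called after sham, as Aqp8 was at -1.57 (adjusted p = 0.0505), and no other count of called aquaporins moved by over 1.5 times. Depth limits Aqp5 and Aqp8 after UIR, where 3 counts over a group equal 0.0554 CPM in PTCKO UIR and 0.0535 CPM in WT UIR.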

Other observations

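The table holds 2 further aquaporin genes outside the members described. Aqp9, a channel for glycerol and other small solutes known from liver and leukocytes, was at 1.94, 2.83 and 1.26 FPKM in PTCKO UIR and 1.70, 1.92 and 1.64 in WT UIR, against at most 0.05 in PTCKO sham and at most 0.02 in WT sham. It was called higher after UIR in PTCKO (adjusted p = 3.07e-07) and in WT (adjusted p = 1.89e-07), the opposite direction to the members called with TMM scaling, and its genotype difference after UIR of 0.27 was not called (adjusted p = 0.52). All 9 macrophage markers also rose in each genotype, summing to between 3741 and 4885 FPKM in PTCKO UIR and between 5275 and 8034 in WT UIR, and to between 79.5 and 105 in PTCKO sham and between 84.7 and 105 in WT sham, and their part in the Aqp9 level was not tested. Mip, the lens aquaporin, had 14 expected counts over PTCKO UIR, 14 over WT UIR, 6 over PTCKO sham and 2 over WT sham and was not tested.

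Genes of urea and osmolyte handling act beside the aquaporins in urine concentration. Of all 15322 genes tested, 5969 rose and 5336 fell with UIR in PTCKO, and 6458 rose and 5580 fell in WT. Of the 9 urea and osmolyte genes, 2 rose and 3 fell with UIR in PTCKO and 5 rose and 3 fell in WT (3 and 3, and 8 and 1, without scaling). Nfat5, the transcription factor of the response to high tonicity, was at 14.8 ± 2.46 FPKM in PTCKO UIR, 17.2 ± 1.98 in WT UIR, 6.20 ± 0.352 in PTCKO sham and 4.41 ± 0.676 in WT sham (SD, n = 3 each). It rose by 0.72 on the log2 scale in PTCKO (SE 0.116, adjusted p = 7.57e-05) and by 1.23 in WT (SE 0.117, adjusted p = 4.13e-07), and the rise was smaller in PTCKO (interaction -0.50, SE 0.164, adjusted p = 0.0451).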
